A study of Mus musculus with 9 samples.

Results

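The members described here were the amino acid transporter genes of the solute carrier families Slc1, Slc3, Slc7, Slc36, Slc38 and Slc43 in mouse brown adipose tissue. They were taken by gene symbol (Slc, the family number, the letter a and a number), which gave 33 of the 16937 genes listed in the series. The Slc1 family had 5 members, Slc3 had 2, Slc7 had 11, Slc36 had 3, Slc38 had 9 and Slc43 had 3, and all 33 were listed in each of the 3 deposited tables. Of the 33, 32 encode transporters or their heavy chains, and the symbol rule also took Slc7a6os, the opposite-strand neighbour of Slc7a6, which encodes an unrelated protein. RNA of 9 adult mice on the C57Bl/6J background was sequenced, 3 in each group. WT RT mice were wild type and stayed at 23 °C, WT Cold mice were wild type and spent 8 h at 4 °C, and GCN2 KO Cold mice carried a whole body deletion of Gcn2 and had the same 8 h at 4 °C. All mice were housed singly for 5 days at 23 °C first. GCN2 was deleted in all tissues, so a difference need not arise in brown adipose tissue itself. The study used males and females, and the labels give no sex for a library. The title of 1 of the 3 knockout samples names both GCN2 KO and WT. It was placed in GCN2 KO Cold by its genotype and temperature labels, and which of the 3 libraries it is cannot be told. A group of GCN2 KO mice at 23 °C was not analysed here, so the response to cold within that genotype could not be tested.

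Cells take up amino acids through carriers that differ in substrate and driving ion. Light chains of the Slc7 family exchange amino acids across the membrane and most need a heavy chain of the Slc3 family to reach it. Slc38 members and the glutamate and neutral amino acid carriers of the Slc1 family use the sodium gradient, Slc36 members use the proton gradient, and Slc43 members are facilitators that need no ion. GCN2 is a kinase that senses uncharged tRNA when amino acids run short, phosphorylates eIF2 and thereby raises translation of the transcription factor ATF4, whose known targets include several of these carriers. Brown adipose tissue burns lipid, glucose and amino acids in its mitochondria to make heat in the cold.

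The libraries held between 27058799 and 30768064 reads on listed genes, and each WT RT library held more than any cold library. Levels are given as normalised counts, which are reads divided by a size factor set over all 9 libraries, and the 3 libraries of each group carry the letters A, B and C and are given in that order. Library codes begin differently in WT RT and in the cold groups, and whatever set these batches of codes apart cannot be told apart from cold. All 10 brown adipocyte markers were listed, and their summed level was 517415 to 592802 normalised counts in WT RT, 758748 to 802812 in WT Cold and 951707 to 982220 in the libraries labelled GCN2 KO Cold. The targeted gene Eif2ak4, which encodes GCN2, was not lower where the label says that it was deleted. Its level was 377.6 ± 15.7 normalised counts (SD, n = 3) under the label GCN2 KO Cold, against 221.5 ± 34.9 (SD, n = 3) for WT Cold. In WT RT it was 331.5 ± 37.7 (SD, n = 3). The log2 fold change of GCN2 KO Cold over WT Cold was 0.78 (adjusted p = 0.0932 in limma and 0.0028 in DESeq2). Counts over whole genes do not show whether a deleted exon is missing.

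Between genes, levels were compared per kilobase of merged exons. Slc36a2, a proton-coupled carrier known as a surface marker of brown and beige adipocytes, had the highest level of the 33, with 2974 ± 172 normalised counts per kb (SD, n = 3) in WT RT. Slc1a5, the glutamine carrier ASCT2, followed with 2578 ± 136 per kb (SD, n = 3). Next in WT RT were Slc38a10, with 823.5 ± 200.4 per kb (SD, n = 3), and the heavy chain Slc3a2, with 683 ± 153 per kb (SD, n = 3), which lay within their SDs of each other. In WT RT, Slc36a2 held 30.9% and Slc1a5 26.8% of the summed level per kb of the 33 members, while Slc38a10 held 8.51% and Slc3a2 7.11%. In WT Cold these shares were 27% for Slc36a2, 14.5% for Slc1a5, 18.6% for Slc3a2 and 2.39% for Slc38a10. Slc7a8 was the highest Slc7 member over the 9 libraries, at 451.3 per kb, Slc38a10 the highest Slc38 member, at 449.4 per kb, and Slc43a3 the highest Slc43 member, at 338.2 per kb. The order within the Slc7 and Slc38 families differed by group. In WT RT, Slc7a8 (84.8 per kb) was below Slc7a10 (251.8) and Slc7a6 (205.7), and in GCN2 KO Cold it was close to Slc7a6 (465.4 and 470.0). By merged exons, Slc38a10 led its family in WT RT alone. In WT Cold its 261.8 per kb was below Slc38a2 (475.9) and below the widely spread Slc38a4 (316.9 ± 209.1, SD, n = 3). In GCN2 KO Cold its 262.9 was below both again (363.6 and 362.0 ± 101.0, SD, n = 3). By median transcript length Slc38a10 led in WT Cold as well (1891 per kb, against 1599 ± 1008 for Slc38a3, SD, n = 3). In GCN2 KO Cold it was below Slc38a3 on that measure (1899 and 2072 ± 573, SD, n = 3). At the low end, Slc7a4, Slc38a11, Slc7a11 and Slc7a14 had between 1.8 and 3.7 per kb over the 9 libraries. Over the 9 libraries, with median transcript length in place of merged exons, 4 of the 6 families kept the same highest member. In Slc7 it became Slc7a6 (2105 per kb) and in Slc43 it became Slc43a2 (2721 per kb), and Slc1a5 (10415 per kb) stood above Slc3a2 (6468 per kb) and Slc36a2 (4738 per kb).

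**Figure D1:**
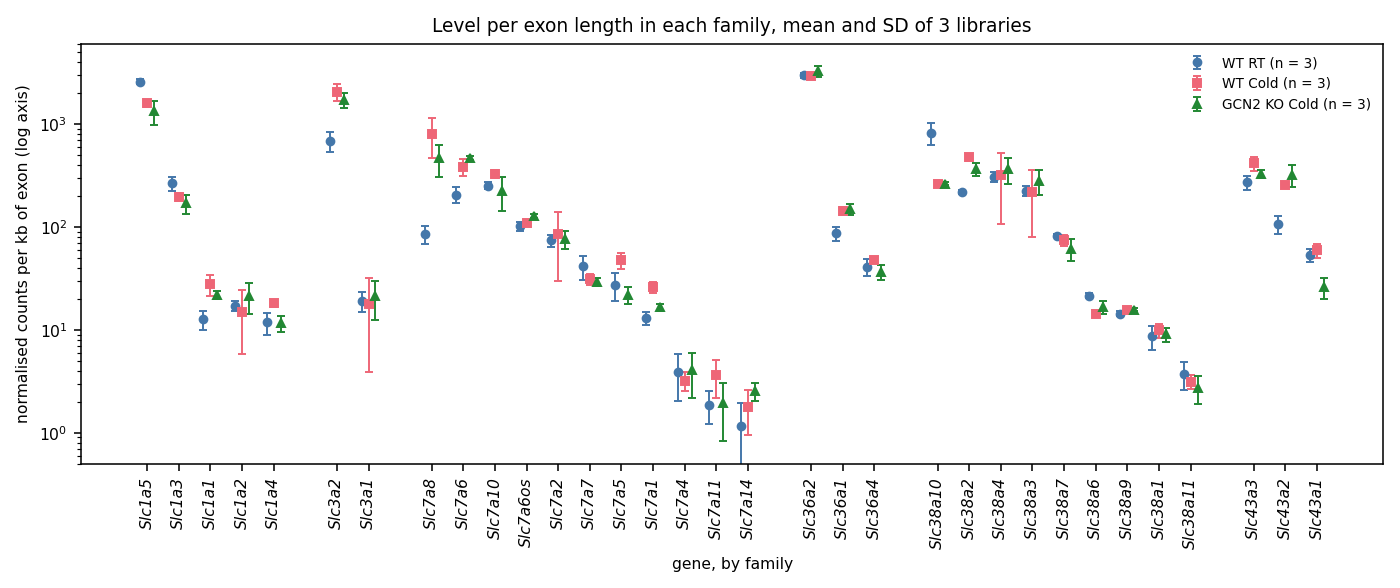
Normalised counts per kilobase of merged exons on a log axis for the 33 members, ordered within each family by level; symbols are group means and bars the SD of 3 libraries. Over the 9 libraries Slc36a2, Slc1a5 and Slc3a2 were the highest members and Slc7a14 the lowest, but in WT RT Slc38a10 was above Slc3a2 and in GCN2 KO Cold Slc7a11 was below Slc7a14. Slc7a14 had an SD in WT RT that reaches below the axis.

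Promoters of 6 members are shown: Slc7a8 and its heavy chain partner Slc3a2 for the largest rises in WT Cold, Slc38a2 for the smallest p there, Slc38a10 for the largest fall, and Slc7a11 and Slc1a4, which limma called in none of the 3 comparisons, for a match to the element that ATF4 binds. Slc7a7, which also had a match, is not printed. The windows run from 250 bases before to 30 bases after the RefSeq start on GRCm38.p6, in the direction of the gene, and 25 of the 33 members had at least 1 window. All 6 genes shown lie on the minus strand. The regions are chr14:54781857-54782136 for Slc7a8, chr19:8713868-8714147 for Slc3a2, chr15:96699699-96699978 for Slc38a2, chr11:120151322-120151601 for Slc38a10, chr3:50443584-50443863 for Slc7a11 and chr11:20332684-20332963 for Slc1a4. Capitals mark matches to the C/EBP-ATF response element TGATGNAA on either strand.
Slc7a8: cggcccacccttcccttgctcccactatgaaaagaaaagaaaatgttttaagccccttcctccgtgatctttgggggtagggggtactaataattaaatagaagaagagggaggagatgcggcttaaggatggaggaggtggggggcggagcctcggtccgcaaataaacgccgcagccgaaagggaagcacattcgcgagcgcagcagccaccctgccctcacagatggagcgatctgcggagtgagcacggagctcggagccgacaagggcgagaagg
Slc3a2: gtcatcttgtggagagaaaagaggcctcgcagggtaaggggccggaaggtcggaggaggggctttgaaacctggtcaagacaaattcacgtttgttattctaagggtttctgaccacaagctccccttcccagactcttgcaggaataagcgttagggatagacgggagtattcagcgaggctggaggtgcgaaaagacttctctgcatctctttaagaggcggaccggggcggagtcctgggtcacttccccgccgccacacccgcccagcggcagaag
Slc38a2: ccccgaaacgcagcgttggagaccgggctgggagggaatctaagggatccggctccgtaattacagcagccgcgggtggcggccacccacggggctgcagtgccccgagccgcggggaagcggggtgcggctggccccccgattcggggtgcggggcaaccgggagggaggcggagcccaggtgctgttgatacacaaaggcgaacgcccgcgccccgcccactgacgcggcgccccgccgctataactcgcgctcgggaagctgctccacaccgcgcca
Slc38a10: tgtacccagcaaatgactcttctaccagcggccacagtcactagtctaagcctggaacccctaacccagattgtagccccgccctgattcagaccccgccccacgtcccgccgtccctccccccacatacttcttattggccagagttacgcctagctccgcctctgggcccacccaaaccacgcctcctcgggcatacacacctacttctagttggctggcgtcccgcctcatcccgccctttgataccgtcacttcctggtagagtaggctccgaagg
Slc7a11: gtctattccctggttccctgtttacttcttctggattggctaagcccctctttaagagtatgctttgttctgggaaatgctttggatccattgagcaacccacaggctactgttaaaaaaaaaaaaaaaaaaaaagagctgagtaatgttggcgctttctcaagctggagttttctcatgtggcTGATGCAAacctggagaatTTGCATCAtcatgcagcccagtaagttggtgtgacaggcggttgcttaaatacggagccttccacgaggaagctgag
Slc1a4: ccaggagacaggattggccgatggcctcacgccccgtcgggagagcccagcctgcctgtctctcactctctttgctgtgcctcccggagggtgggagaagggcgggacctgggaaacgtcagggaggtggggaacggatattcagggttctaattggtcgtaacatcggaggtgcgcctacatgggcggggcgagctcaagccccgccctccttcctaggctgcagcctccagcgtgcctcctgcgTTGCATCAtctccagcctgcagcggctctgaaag
Slc7a11 held 2 matches that face each other, with first bases 66 and 47 bases before the start, and Slc1a4 held 1 match across the start. The 25 members with a window had 34 windows. Of these 34, 4 held a match to TGATGNAA, for Slc1a4, Slc7a7 and Slc7a11, against 3.81% of 32851 windows of that length. The cAMP response element TGACGTCA was found in 1 of the 34 windows, for Slc38a6 (1.74% of all windows). The E-box CACGTG was found in 4, for Slc36a1, Slc7a14, Slc38a7 and Slc43a1 (6.79% of all windows). These matches are letters in a window, read on both strands, and do not show that a factor binds there. A window without a match does not show that the gene lacks the element, since the rest of the gene was not searched.

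The first comparison, WT Cold against WT RT, asked how 8 h of cold changed the transcripts of the carriers. The light chain Slc7a8 rose most, its heavy chain Slc3a2 rose with it, and Slc43a2, Slc38a2 and Slc1a1 more than doubled, while Slc38a10 fell to 0.324 of its level at room temperature. In limma on log2(normalised count + 1) with Benjamini-Hochberg adjustment, 14 of 33 members had an adjusted p under 0.05, 10 higher and 4 lower in WT Cold. The members called lower numbered 2 when WT Cold library B, WT RT library A or WT RT library C was left out. Over all 16679 genes tested, 27.7% were called, 13.6% higher and 14.1% lower. With an absolute log2 fold change over 1 as well, the rule the study used, 6 members passed, 5 higher and 1 lower, against 8.14% of all genes (2.99% higher and 5.15% lower). The members' median log2 fold change was 0.14, and that of all genes 0.00. The libraries of 16 members did not overlap between the groups, 12 higher and 4 lower, against 45.6% of all genes (23% higher and 22.7% lower).

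Slc3a2 encodes CD98hc, the heavy chain that carries most Slc7 light chains to the plasma membrane. It had 1985, 3016 and 2230.6 normalised counts in WT RT, 6164, 6813 and 8848 in WT Cold and, under the label GCN2 KO Cold, 4921, 6335 and 6959. All 6 cold libraries were above all 3 WT RT libraries. The log2 fold change in WT Cold, with its standard error (SE), was 1.60 (SE 0.18, limma adjusted p = 0.00102). Slc7a8, which encodes the light chain LAT2 for neutral amino acids, had 342, 504.5 and 428 normalised counts in WT RT, 2735, 3401 and 5930.1 in WT Cold and, under the label GCN2 KO Cold, 1675.5, 3228 and 2085. No cold library came near WT RT, and WT Cold library C stood above the other two. Its log2 fold change was 3.18 (SE 0.27, limma adjusted p = 0.000409), and without WT Cold library C it was 2.86. Slc7a6, a light chain that exchanges cationic for neutral amino acids, had 790.5, 916 and 1114 normalised counts in WT RT, 2103, 1657 and 1489 in WT Cold and, under the label GCN2 KO Cold, 2139.9, 2045.5 and 2258. No cold library overlapped with WT RT, and the log2 fold change in WT Cold was 0.89 (SE 0.16, limma adjusted p = 0.00629). The other heavy chain, Slc3a1, known from kidney and intestine, was not called (log2 fold change -0.34). Exons of Prepl lie opposite 26.5% of its exon bases.

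Slc7a5 encodes LAT1, the light chain best known for leucine uptake, and had 65.2, 118 and 119.7 normalised counts in WT RT, 196, 141.5 and 192 in WT Cold and, under the label GCN2 KO Cold, 71.4, 97.8 and 72.8. Each WT Cold library was above each WT RT library, and WT RT library A was well below the other two. The log2 fold change of 0.83 (SE 0.27, limma adjusted p = 0.0535) did not pass the threshold, with a 95% interval from 0.21 to 1.46, and was 0.55 without WT RT library A. With DESeq2 its adjusted p was 0.021, and in a limma fit of all 3 groups 0.0391. Slc7a10, the small neutral amino acid exchanger Asc-1 known as a marker of white adipocytes, had 567, 539 and 489 normalised counts in WT RT, 622, 728 and 724 in WT Cold and, under the label GCN2 KO Cold, 586, 563 and 274. Its WT Cold libraries were all above WT RT, by a log2 fold change of 0.37 (SE 0.11, limma adjusted p = 0.0364), and this call was lost without any 1 of 5 of the 6 libraries (adjusted p between 0.0565 and 0.121 in limma), with scaling by total reads (0.102) and in a fit of all 3 groups (0.282). Its exons share 17.9% of their bases with Lrp3 on the opposite strand, and the library kit is not stated to keep strand, so reads of both cannot be told apart there. Slc7a7, the partner exchanger most known from macrophages and intestine, and the cystine exchanger Slc7a11 were not called (log2 fold changes -0.40 and 0.87). Without WT Cold library C, Slc7a11 had an adjusted p of 0.0259 in limma.

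Of the cationic carriers, Slc7a1 (CAT1, the widespread arginine and lysine carrier) had 136.5, 139 and 176 normalised counts in WT RT, 317, 256 and 325 in WT Cold and, under the label GCN2 KO Cold, 201, 172 and 199.9. WT Cold lay above WT RT in all libraries, by a log2 fold change of 0.99 (SE 0.16, limma adjusted p = 0.00458). Slc7a2, the carrier of the same substrates known from liver and muscle, was not called (log2 fold change 0.01, 95% interval from -0.89 to 0.92). The low Slc7a4 and Slc7a14, relatives whose transport is less clear, had between 3.71 and 29 normalised counts in every library and were not called. Slc7a6os was not called in WT Cold either (log2 fold change 0.11). The 4 called Slc7 members were thus all higher in WT Cold, and 2 of the 11 had a log2 fold change below 0.

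The Slc43 family showed 2 calls among 3 members. Slc43a2, which encodes the facilitator LAT4 for large neutral amino acids, had 825, 1237 and 1164.5 normalised counts in WT RT, 2431, 2673 and 2593 in WT Cold and, under the label GCN2 KO Cold, 2814, 4085.5 and 2772. All cold libraries were above WT RT, and the log2 fold change in WT Cold was 1.27 (SE 0.15, limma adjusted p = 0.00112). Exons of Gm45606 lie opposite 9.18% of its exon bases. Slc43a3, whose protein is known to carry purine bases, had 1396, 1008 and 1236 normalised counts in WT RT, 1813, 1589.8 and 2148 in WT Cold and, under the label GCN2 KO Cold, 1475, 1579 and 1343. Its WT Cold libraries were all above WT RT by a log2 fold change of 0.61 (SE 0.15, limma adjusted p = 0.0213), a call lost without WT Cold library A, WT RT library B or WT RT library C (adjusted p between 0.055 and 0.0624 in limma). Slc43a1, the facilitator LAT3 for branched-chain amino acids and phenylalanine, had 356, 280.1 and 278 normalised counts in WT RT, 285, 335 and 395 in WT Cold and, under the label GCN2 KO Cold, 137, 186 and 121. WT Cold and WT RT overlapped (log2 fold change 0.14, 95% interval from -0.23 to 0.52), and the libraries labelled GCN2 KO Cold were below both.

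In the Slc38 family, 3 of 9 members were called, 1 higher and 2 lower. Slc38a2 encodes SNAT2, the system A carrier known to be induced when cells lack amino acids, and had 1862, 2022 and 1893 normalised counts in WT RT, 4374, 3815 and 4429 in WT Cold and, under the label GCN2 KO Cold, 3065, 2854 and 3721. The groups did not overlap, and the log2 fold change in WT Cold was 1.12 (SE 0.08, limma adjusted p = 0.000218). Slc38a10, whose protein is known from brain and is less well characterised, had 3953, 5389.9 and 6520.0 normalised counts in WT RT, 1685, 1614 and 1744 in WT Cold and, under the label GCN2 KO Cold, 1741, 1680.3 and 1643. WT RT ranged widely, with library A lowest, but all 6 cold libraries lay between 1614 and 1744, far below the lowest WT RT library. Its log2 fold change was -1.63 (SE 0.16, limma adjusted p = 0.000641). Exons of Gm11769 lie opposite 5.72% of its exon bases. Slc38a6 had 176, 160.2 and 167 normalised counts in WT RT, 113.5, 113.6 and 104 in WT Cold and, under the label GCN2 KO Cold, 115, 150.0 and 121. Its WT Cold libraries were below all of WT RT, by a log2 fold change of -0.60 (SE 0.14, limma adjusted p = 0.0184), and leaving out WT Cold library B, WT RT library A or WT RT library C ended the call (adjusted p between 0.052 and 0.0658 in limma). Slc38a9, the lysosomal arginine sensor of mTORC1, was among the steadiest members (log2 fold change 0.11, 95% interval from -0.16 to 0.39). The system A member Slc38a1 and the lysosomal glutamine carrier Slc38a7 were not called (0.22 and -0.16), nor were Slc38a3, Slc38a4 and the low Slc38a11 (-0.24, -0.17 and -0.20).

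In the Slc1 family, 3 of 5 members were called, 1 higher and 2 lower. Slc1a1, the glutamate and cysteine carrier EAAT3, had 84.4, 99.4 and 129 normalised counts in WT RT, 231, 279 and 175 in WT Cold and, under the label GCN2 KO Cold, 199.8, 172 and 169. All cold libraries were above WT RT, and the log2 fold change in WT Cold was 1.12 (SE 0.23, limma adjusted p = 0.0102). Of its exon bases, 31.9% lie opposite exons of 4430402I18Rik. Reads from there could belong to either gene, and whether such reads were counted is not stated. Slc1a5 had 10698, 10224 and 11357 normalised counts in WT RT, 6016, 6935 and 6920.4 in WT Cold and, under the label GCN2 KO Cold, 6095, 6551.5 and 3912. WT RT was above every cold library, and WT Cold was lower by a log2 fold change of -0.70 (SE 0.08, limma adjusted p = 0.00122). Slc1a3, the glutamate carrier GLAST, had 2649.9, 1945 and 2243 normalised counts in WT RT, 1761, 1771 and 1489.7 in WT Cold and, under the label GCN2 KO Cold, 1489, 1724 and 1119. WT Cold was below WT RT in all libraries, by a log2 fold change of -0.44 (SE 0.13, limma adjusted p = 0.0372), and leaving out any 1 of 5 of the 6 libraries ended the call (adjusted p between 0.0597 and 0.101 in limma), as did a fit of all 3 groups (0.0704). Slc1a4, the alanine, serine and cysteine carrier ASCT1, was higher in every WT Cold library but not called (log2 fold change 0.63, adjusted p = 0.0924 in limma), and the glutamate carrier Slc1a2 was not called (-0.41).

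Of the Slc36 family, Slc36a1, which carries small neutral amino acids out of lysosomes with protons, had 469.6, 568 and 418.5 normalised counts in WT RT, 740.3, 876 and 793 in WT Cold and, under the label GCN2 KO Cold, 955.5, 828 and 745. All cold libraries were above WT RT, and the log2 fold change in WT Cold was 0.73 (SE 0.13, limma adjusted p = 0.00616). Slc36a2, its neighbour on chromosome 11, had 9806, 9068 and 10165 normalised counts in WT RT, 9799, 9549 and 9438 in WT Cold and, under the label GCN2 KO Cold, 10271, 12075 and 9382. The groups overlapped, and the 95% interval of the log2 fold change in WT Cold was narrow, from -0.18 to 0.15 around -0.01. Slc36a4 was not called (log2 fold change 0.22).

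**Figure D2:**
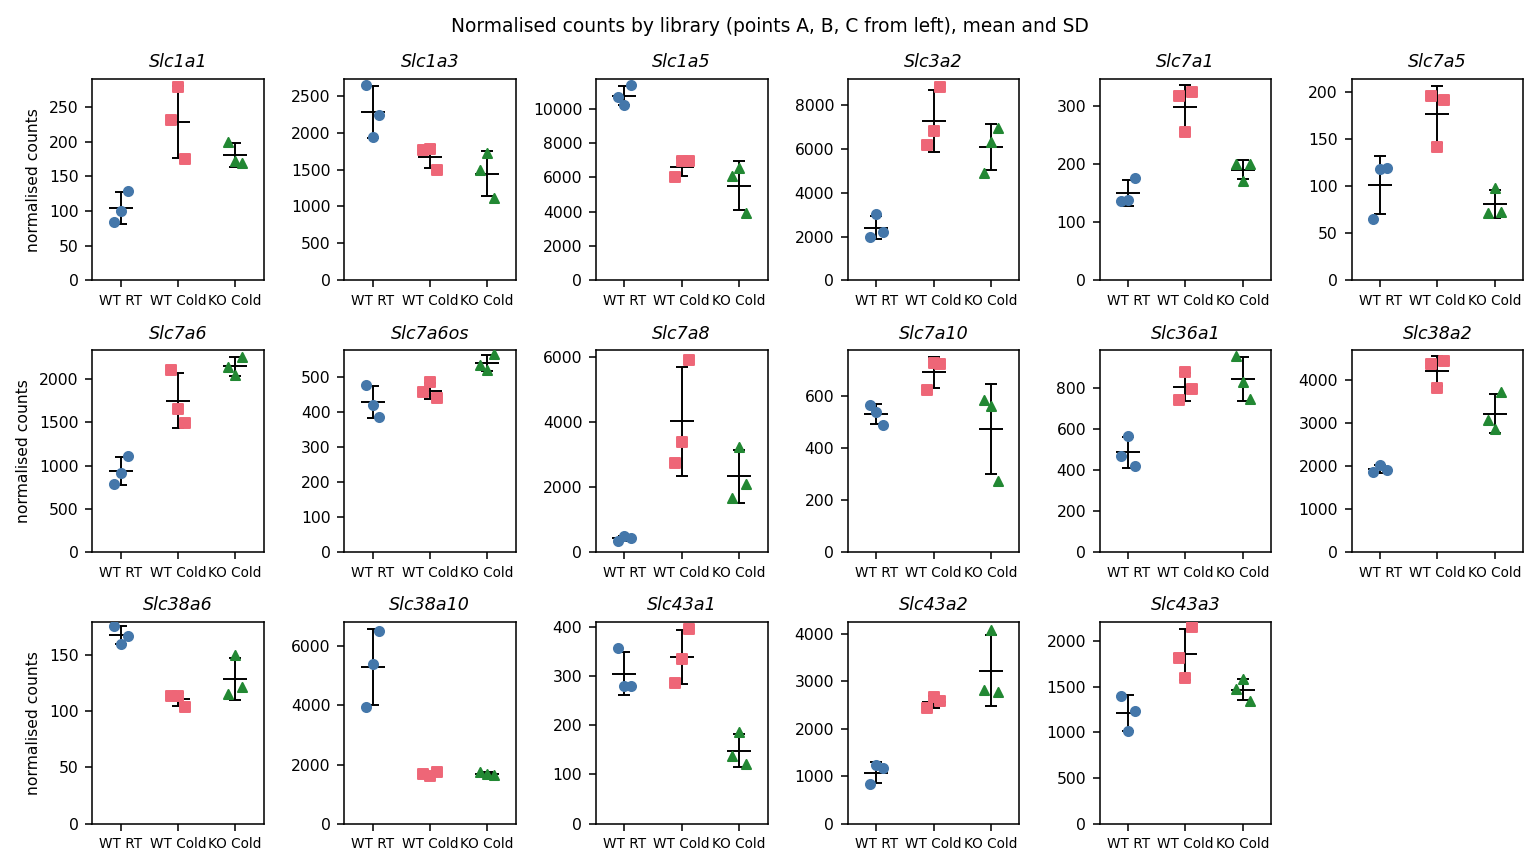
Normalised counts in each of the 9 libraries for the 16 members called in at least 1 comparison and for Slc7a5; points are libraries A, B and C, and bars are the mean and SD (n = 3). In Slc7a8 the 3 WT RT libraries lie between 342 and 504.5 and the 6 cold libraries between 1676 and 5930.

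Markers of other cells moved in this comparison as well. Of 10 leukocyte and macrophage markers, 6 were lower and none higher in WT Cold, with summed levels of 9447 to 15298 normalised counts in WT RT and 4327 to 6746 in WT Cold. All 5 erythroid markers were higher, with sums of 6860 to 9355 in WT RT and 16818 to 65322 in WT Cold. Of 7 endothelial markers, 2 were higher and 0 lower, with sums of 15134 to 17778 in WT RT and 19604 to 22940 in WT Cold that did not overlap. Of 10 skeletal muscle markers 1 was higher, with sums of 71526 to 80338 and 68333 to 110281, and 1 of 7 Schwann cell and nerve markers was higher, with sums of 2347 to 3168 and 3194 to 4264. No marker of these lists was at 0 in all libraries of a group, and the part of these cells in the members' values was not tested. In such whole tissue, fewer cells of a type and less RNA per cell cannot be told apart. Of 10 brown adipocyte markers, 4 were higher and 1 was lower.

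The comparison of GCN2 KO Cold with WT Cold asked which of the cold levels differed between the genotypes. The 3 carriers of large neutral and cationic amino acids Slc43a1, Slc7a5 and Slc7a1 had the smallest p-values of the members, each with all libraries labelled GCN2 KO Cold below all WT Cold libraries, but none passed the adjusted threshold in limma. Of the 33 members, 0 were called by limma, against 0.405% of all 16312 genes (0.178% higher and 0.227% lower), and 0 passed both thresholds, against 0.257% of all genes. At an unadjusted p under 0.05, limma gave 10 members, 2 higher and 8 lower, or 30.3%, against 15.3% of all genes (7.83% higher and 7.49% lower). With the recovered reads, DESeq2 called 3 members, all lower, against 3.22% of all genes, and edgeR called 0, against 0.27%. The libraries of 11 members did not overlap between these groups, 3 higher and 8 lower, against 22% of all genes (11.4% higher and 10.6% lower). The members' median log2 fold change was -0.13, and that of all genes 0.00.

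Slc43a1 ranged from 285 to 395 normalised counts in WT Cold and from 121 to 186 in the libraries labelled GCN2 KO Cold. Its log2 fold change was -1.20 (SE 0.20, limma adjusted p = 0.0661), with a 95% interval from -1.66 to -0.73 and an adjusted p of 5.14e-05 in DESeq2. Slc43a1 lies on chromosome 2, as does the targeted gene Eif2ak4, and the part of sequence linked to the deletion was not tested. Slc7a5 ranged from 141.5 to 196 in WT Cold and from 71.4 to 97.8 in the libraries labelled GCN2 KO Cold. The latter overlapped with WT RT, and the log2 fold change was -1.12 (SE 0.21, limma adjusted p = 0.0896), with an adjusted p of 0.0017 in DESeq2. For Slc7a1, the log2 fold change was -0.64 (SE 0.15, limma adjusted p = 0.128), and DESeq2 gave an adjusted p of 0.0311. Slc38a2 was also lower in every library, from 2854 to 3721 against 3815 to 4429 normalised counts, by a log2 fold change of -0.39 (SE 0.12, limma adjusted p = 0.186). The ASCT1 gene Slc1a4, with 40.4 to 54.7 against 65 to 76.7 normalised counts, had a log2 fold change of -0.64 (SE 0.22, limma adjusted p = 0.237). For Slc1a1 the groups overlapped, with a log2 fold change of -0.32 (SE 0.20, limma adjusted p = 0.504).

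Slc7a10, Slc36a4 and Slc43a3 were the other members whose libraries labelled GCN2 KO Cold all lay below WT Cold, with log2 fold changes of -0.62, -0.38 and -0.33, and with 1 library left out Slc36a4 ranged from -0.48 to -0.25 and Slc43a3 from -0.43 to -0.22. In Slc7a10 the library labelled GCN2 KO Cold C, at 274 normalised counts, was well below the other two, and without it the log2 fold change was -0.27. Slc43a2, Slc38a6 and Slc7a6os lay above WT Cold in all 3 libraries (0.31, 0.21 and 0.23), with 0.13 for Slc43a2 and 0.10 for Slc38a6 without GCN2 KO Cold library B. For Slc7a8 and Slc3a2, which had risen most in WT Cold, the groups overlapped, with log2 fold changes of -0.76 (95% interval from -1.51 to -0.01) and -0.26 (95% interval from -0.65 to 0.13). Without WT Cold library C these values were -0.44 and -0.11, and without GCN2 KO Cold library A the value of Slc3a2 was -0.12. For Slc38a10 the difference was 0.01, with a 95% interval from -0.16 to 0.18.

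**Figure D3:**
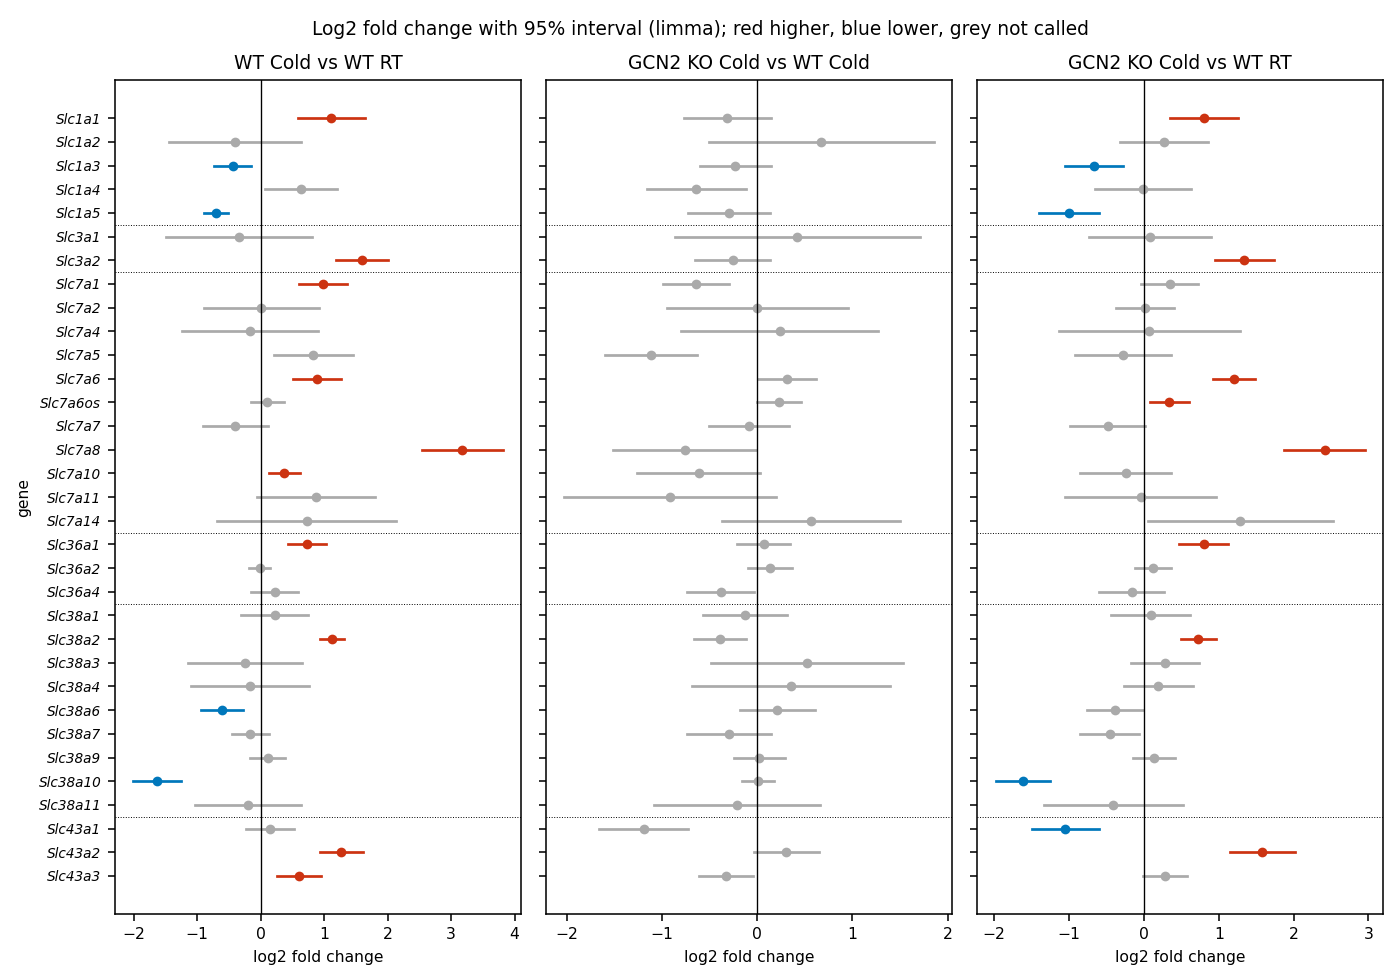
Log2 fold change with its 95% interval from limma for the 33 members in the 3 comparisons, grouped by family; red and blue mark members called higher and lower at an adjusted p under 0.05. In GCN2 KO Cold vs WT Cold all 33 are grey, and Slc43a1 and Slc7a5 are farthest to the left, at -1.20 and -1.12.

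Of the markers of other cells, limma called 1 between these groups, a Schwann cell and nerve marker that was lower, with 5 of the 6 tested in that list below 0. All 10 skeletal muscle markers had a lower mean in the libraries labelled GCN2 KO Cold, none of them called by limma, and their summed level was 68333 to 110281 normalised counts in WT Cold and 11485 to 43485 in the libraries labelled GCN2 KO Cold. The 5 erythroid markers were all above 0 (median log2 fold change 0.64), with sums of 16818 to 65322 in WT Cold and 33902 to 64235 under the label GCN2 KO Cold, and 9 of 10 brown adipocyte markers were above 0 (median 0.24). The Schwann cell and nerve sums were 3194 to 4264 and 3053 to 3784, and 7 of 9 tested leukocyte and macrophage markers and 6 of 7 endothelial markers were below 0. No marker of these lists was at 0 in all libraries of a group, and their part in the members' values was not tested.

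The last comparison, GCN2 KO Cold against WT RT, shares its WT RT libraries with the first and its GCN2 KO Cold libraries with the second. Of the called members, Slc7a8, Slc43a2, Slc3a2 and Slc7a6 more than doubled in it, and Slc38a10 and Slc43a1 fell by more than 1 on the log2 scale. The low Slc7a14 had a log2 fold change of 1.29 but was not called (limma adjusted p = 0.101). Without WT RT library A it was called (0.046 in limma). By limma, 12 of 33 members were called, 8 higher and 4 lower, against 34.2% of all 16560 genes (16.4% higher and 17.8% lower). Scaling by total reads, which moved the median log2 fold change of all genes from 0.01 to -0.19, gave 7 higher and 7 lower members. Both thresholds were passed by 6 members, 4 higher and 2 lower, against 10.6% of all genes (3.01% higher and 7.58% lower). The members' median log2 fold change was 0.09, and 17 of them had libraries that did not overlap, 10 higher and 7 lower, against 49.2% of all genes (23.8% higher and 25.4% lower).

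Markers of other cells differed here too. Of 10 skeletal muscle markers, 8 were lower and 0 higher, with summed levels of 71526 to 80338 normalised counts in WT RT and 11485 to 43485 under the label GCN2 KO Cold. Of 10 leukocyte and macrophage markers, 8 were lower and 0 higher, with sums of 9447 to 15298 against 3503 to 5551, and all 5 erythroid markers were higher, with sums of 6860 to 9355 against 33902 to 64235. Of 7 endothelial markers, 1 was higher and 2 lower (sums of 15134 to 17778 against 16737 to 20386), and of 6 tested Schwann cell and nerve markers 1 was higher and 1 lower (sums of the list 2347 to 3168 against 3053 to 3784). Of 10 brown adipocyte markers, 6 were higher and 0 lower. No marker of these lists was at 0 in all libraries of a group, and their part in the members' values was not tested.

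Among the exchangers, Slc7a8 had a log2 fold change of 2.41 (SE 0.23, limma adjusted p = 0.000324). Slc3a2 followed with 1.34 (SE 0.17, limma adjusted p = 0.00101). Slc7a6 had 1.20 (SE 0.12, limma adjusted p = 0.000403), where WT Cold had shown 0.89 against WT RT. Slc43a2 rose by a log2 fold change of 1.58 (SE 0.19, limma adjusted p = 0.000771). Slc7a6os was called at 0.34 (SE 0.11, limma adjusted p = 0.0472), with 476, 420.5 and 385 normalised counts in WT RT, 456, 485 and 439 in WT Cold and, under the label GCN2 KO Cold, 534, 519.5 and 566. Its libraries labelled GCN2 KO Cold were all the highest, but the call was lost without any 1 of 5 of the 6 libraries and in DESeq2 and edgeR (adjusted p = 0.0549 and 0.0665) and with scaling by total reads (0.416 in limma).

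Slc36a1, Slc1a1 and Slc38a2 were called higher with log2 fold changes of 0.80, 0.80 and 0.73, where the values of WT Cold against WT RT had been 0.73, 1.12 and 1.12. Slc1a1 lost its call without WT RT library A (adjusted p = 0.0515 in limma). Slc38a10 had -1.62 (SE 0.16, limma adjusted p = 0.000348), almost the value of the first comparison. Slc1a5 was lower by a log2 fold change of -0.998 (SE 0.18, limma adjusted p = 0.0036), and the library labelled GCN2 KO Cold C, at 3912 normalised counts, was well below the other two. Without that library the value was -0.77. The skeletal muscle sum was also lowest there, with 43485, 33950 and 11485 normalised counts in GCN2 KO Cold A, B and C. Its part in these values was not tested. Slc1a3 was called lower with a log2 fold change of -0.67, and this call was lost without WT RT library A (adjusted p = 0.0637 in limma). Slc43a1, not called in the first comparison, was lower by a log2 fold change of -1.05 (SE 0.19, limma adjusted p = 0.00434).

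Of the members called higher in WT Cold, 3 were not called in this comparison. Slc7a1 had a log2 fold change of 0.35 (95% interval from -0.03 to 0.72), Slc43a3 of 0.28 (95% interval from -0.01 to 0.57, and 0.15 without WT RT library B) and Slc7a10 of -0.24 (95% interval from -0.85 to 0.37). Slc7a5 was not called here either (-0.28, 95% interval from -0.93 to 0.36; -0.57 to -0.14 with 1 library left out, the lowest without WT RT library A), nor was Slc1a4 (-0.01, 95% interval from -0.65 to 0.63). Whether the change from WT RT differs between the cold groups is what the second comparison tests, and it called none of these members in limma. Slc38a6 and Slc38a7 were below WT RT in all 3 libraries without passing the threshold (-0.39 and -0.46). With scaling by total reads both were called lower (adjusted p = 0.0241 and 0.0184 in limma), as was Slc7a7 (0.0479), and Slc38a7 was also called without the library labelled GCN2 KO Cold C (0.00923).

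Some members varied more between libraries of a group than between groups. Slc38a4, a system A carrier known from liver, had 1472, 1214 and 1257 normalised counts in WT RT, 644, 1055 and 2351 in WT Cold and, under the label GCN2 KO Cold, 1046, 1806 and 1775. Slc38a3, the glutamine carrier SNAT3, had 1337, 1088 and 1148 normalised counts in WT RT, 559, 928 and 1953 in WT Cold and, under the label GCN2 KO Cold, 1022.5, 1629 and 1805. In both, WT Cold library A was below every WT RT library and WT Cold library C above every one. The cationic carrier Slc7a2, the glutamate carrier Slc1a2 and the heavy chain Slc3a1 also had WT Cold library A lowest and C highest, with C at 3.4, 4.13 and 3.95 times A. That order was shared by Slc7a8, Slc3a2, Slc43a1 and Slc7a4, and its share over all genes was not counted. The skeletal muscle sum had the reverse order in WT Cold, with 110281 in A, 103368 in B and 68333 in C, and its part in these values was not tested. Without WT Cold library C, Slc38a3 and Slc38a4 were called lower in WT Cold than in WT RT (adjusted p = 0.0262 and 0.0307 in limma), and the members called then numbered 15, 10 higher and 5 lower. Without the library labelled GCN2 KO Cold A, Slc1a2, Slc38a3 and Slc38a4 were called higher than in WT RT (adjusted p = 0.0237, 0.0121 and 0.0178 in limma). The low Slc7a14 had the largest spread, with WT RT libraries that differed by 5.16 times.

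**Figure D4:**
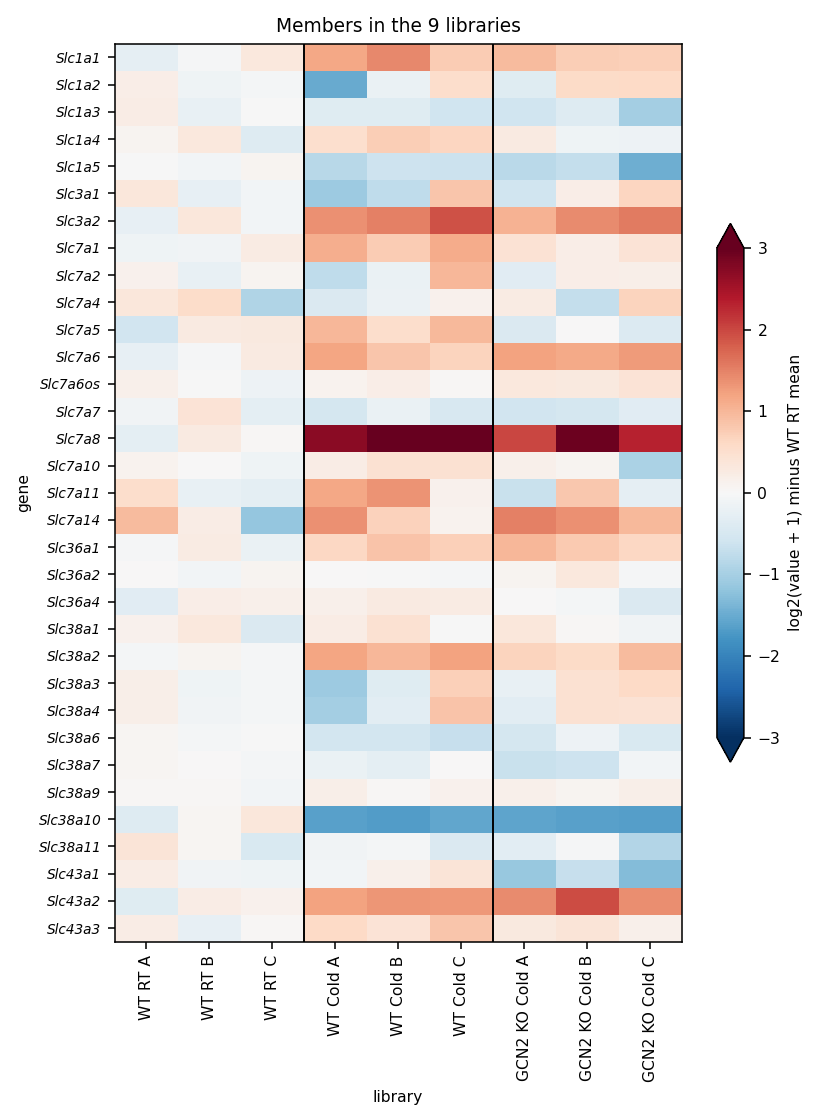
Log2(normalised count + 1) of the 33 members in the 9 libraries minus the WT RT mean of each member, red above and blue below, with the colour scale ending 3 log2 units either side. Slc7a8 is the darkest red in all 6 cold libraries, Slc38a10 is blue in all 6, and Slc38a3 and Slc38a4 are blue in WT Cold A and red in WT Cold C.

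Genes of related pathways were counted as well, to be read against the shares of all genes called: 13.6% higher and 14.1% lower in WT Cold against WT RT, 0.178% and 0.227% in GCN2 KO Cold against WT Cold, and 16.4% and 17.8% in GCN2 KO Cold against WT RT. Of 22 other plasma membrane and lysosomal amino acid and peptide carriers, 13 were listed, and in WT Cold against WT RT 1 was higher (Slc6a19, log2 fold change 0.57) and 1 lower (the histidine and peptide carrier Slc15a3, -2.13). In GCN2 KO Cold against WT RT the counts were 2 higher and 2 lower, and none of 12 was called against WT Cold. Of 24 genes of ATF4 and the amino acid response, 10 were higher and 5 lower in WT Cold than in WT RT. Atf4 itself (1.20), the stress genes Ddit4 (1.69) and Sesn2 (1.26) were among those that rose, and the serine synthesis enzymes Psph (-1.16), Phgdh (-0.96) and Psat1 (-0.56) among those that fell. In GCN2 KO Cold against WT Cold none of the 24 was called by limma, with 20 values below 0 and a median log2 fold change of -0.32, against 0.00 over all genes. Against WT RT, 7 were higher and 7 lower. Of 24 listed genes of amino acid sensing by mTORC1, 9 were higher and 1 lower in WT Cold than in WT RT, with the Rag GTPases Rragb (0.92), Rragc (0.75), Rragd (0.63) and Rraga (0.36) all higher. None of these 24 was called in GCN2 KO Cold against WT Cold, and 8 were higher and 3 lower against WT RT.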

How the data were processed

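The authors trimmed reads with Trimmomatic 0.36, aligned them with STAR 2.5.2b and counted them per gene with featureCounts (Subread 1.5.2), with GRCm39 as the build, per the submitters' processing notes, and compared groups with DESeq2. The deposited values are a signal, namely reads over a per-library size factor that was set separately in each table. The authors' log2 fold change and p-value columns were not used. Whole reads were recovered for 100% of values (within 0.01 reads). Library columns were assigned to groups, not to mice, and 0 columns belonged to other samples. Groups were compared within a table with limma 3.58.1 (R 4.3.3) on log2(value + 1) with a trended prior variance and Benjamini-Hochberg adjustment over all genes, and fold changes on that scale understate those of low genes. DESeq2 1.42.0 and edgeR 4.0.16 were run on recovered reads. Size factors over 9 libraries, in place of the CPM first planned, scaled the printed levels. Scripts were tested on simulated data. Exon lengths and overlaps are from GENCODE M21 (GRCm38), in which all 33 members were found, and no sequence of the files' build was used. Full values were given for members called in any comparison, Slc38a2, Slc7a5, Slc1a1 and the highest member per length of each family; Slc38a3, Slc38a4 and the genes named from pathway lists as examples were chosen after their values were seen. Members and lists were chosen with earlier results of these data known. Depth was 27058799 to 30768064 reads per library and was higher in WT RT than in both cold groups; what counting error adds was not measured separately.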

Additional observations from a re-analysis of the deposited data

How the results depend on the processing

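In GCN2 KO Cold against WT Cold, where limma called 0 members, DESeq2 called 3, and scaling by total reads and a fit of all 3 groups each called 1 (Slc43a1). Members past both thresholds there numbered 2 in DESeq2, 1 with scaling by total reads and 1 in the fit of all 3 groups. The total counts of the other comparisons stayed within 1.5 times under every setting run: 11 to 15 called members in WT Cold against WT RT and 10 to 14 in GCN2 KO Cold against WT RT, and 10 to 15 and 11 to 14 when libraries were left out singly. The members called lower did not: they numbered 4 in both, but 2 in WT Cold against WT RT without WT Cold library B, WT RT library A or WT RT library C, and 7 in GCN2 KO Cold against WT RT with scaling by total reads. Scaling by total reads moved the median log2 fold change of all genes to -0.08, -0.12 and -0.19 in the 3 comparisons. It turned the sign of values that were not called, among them -0.051 for Slc36a1 and -0.11 for Slc38a10 in GCN2 KO Cold against WT Cold and -0.083 for Slc36a2 and -0.012 for Slc38a4 in GCN2 KO Cold against WT RT. Leaving out a library did so as well, with values from -0.063 to 0.021 for Slc36a2, from -0.72 to 0.18 for Slc38a3 and from -0.67 to 0.26 for Slc38a4 in WT Cold against WT RT, from -0.029 to 0.15 for Slc36a1, from -0.075 to 0.86 for Slc38a4 and from -0.020 to 0.033 for Slc38a10 in GCN2 KO Cold against WT Cold, and from -0.43 to 0.11 for Slc7a10 in GCN2 KO Cold against WT RT. Other members that were not called also crossed 0 or moved by over 1.5 times. The cause of these turns was not tested. No called value of a member given library by library changed sign under the settings run. No paired analysis was possible because the deposited columns carry no replicate numbers. With 3 libraries a group, intervals of low members were wide, and a member that was not called is not shown to be unchanged.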
